A study of Mus musculus with 48 samples.

Results

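Whole skin of the mouse ventrum (belly) was compared between libraries labelled as 2 resting stages of the hair cycle. These are the refractory telogen, in which follicles do not answer signals for growth, and the competent telogen, in which they can. Over 29 cell cycle genes, the libraries labelled competent telogen had a mean log2(FPKM + 1) of 4.54 to 4.72, above every other ventral stage. Those libraries thus went against a label of rest in these genes, and the 2 labels serve as names only. The members were 5 libraries, all those labelled with these 2 ventral stages, of 43 in the table of the skin domains and 48 in the whole series: 2 of refractory and 3 of competent telogen. All came from C57BL/6 mice with no transgene and no treatment named, as the whole thickness of dissected ventral skin, so that epidermis, follicles, dermis, fat, muscle, vessels and blood were sequenced as 1 mixture. The other groups tested below are 3 libraries of ventral early anagen, and the competent and refractory telogen libraries of dorsal (2 and 2) and chin skin (2 and 3) of the same strain. Levels are also given for the remaining ventral stages, of 15 ventral libraries in all, and for dorsal and chin early anagen. Some alternative fits took all 15 ventral or all 43 libraries. In the study, competent telogen was sampled in the first telogen and refractory telogen at the start of the second, so stage cannot be told apart from age and from the number of hair cycles passed. Ages and sexes were not given in the sources used here, nor was it stated that replicate libraries came from separate mice, so the p-values below measure the spread between these libraries, which may be technical.

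In telogen the follicle is short and holds a resting club hair, a bulge of stem cells, a small secondary germ and the dermal papilla, a cluster of signalling fibroblasts. WNT ligands act through beta-catenin to start growth (anagen), and BMP ligands of the dermis, fat and follicle hold the stem cells at rest. Once growth starts, the germ divides and secretes Shh, melanocytes differentiate in the new bulb, and the shaft is built from hair keratins that are cross-linked by keratin-associated proteins made late in the shaft's differentiation. In mixed tissue, fewer cells of a type and less RNA of a gene per cell cannot be told apart.

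Between 8403198 and 16921962 fragments per library were estimated from the steps in the values as deposited. The unit is FPKM, in which the fragments of a gene are divided by transcript length and scaled to the library's depth, so levels may be compared between genes. The refractory pair differed from each other more than any competent pair: the chi-square per gene on the estimated fragments was 99.1 for the refractory pair, between 12.2 and 22.7 within the competent group and between 234.8 and 385.7 across the groups. The FPKM of a library summed to between 882910 and 1163973, highest in refractory library 2. Markers of skin were present in every library. Epidermal Krt14 and Krt5, dermal Col1a1 and Col3a1, fat Adipoq and muscle Acta1 were detected in each of the 5, with the lowest of these values for Acta1, at 79.2, 66.5 and 65.9 FPKM in the competent libraries.

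The stage labels were checked against the other ventral stages before any comparison. The summed marker levels did not follow the order the labels give. Mki67, a marker of dividing cells, stood at 2.16 and 1.61 FPKM in the refractory libraries, 11.2, 12.5 and 11.1 FPKM in the libraries labelled competent telogen and 1.42, 1.39 and 1.39 FPKM in those labelled ventral early anagen. Shh, the signal of the growing follicle, stood at 2.14 and 0.6, at 9.05, 11.9 and 8.82 and at 0.14, 0.27 and 0.2 FPKM in the same order. Competent telogen was thus the highest of these 3 labels for both genes, and the early anagen libraries were no higher than the refractory ones. Over a list of 29 cell cycle genes, the mean log2(FPKM + 1) was 4.54 to 4.72 in the competent libraries, 2.22 to 2.46 in the refractory libraries and 2.21 to 2.36 in ventral early anagen, while in dorsal skin it was 3.47 to 3.50 in competent telogen and 4.87 to 4.88 in early anagen. In chin skin it was 4.34 to 4.42 in competent telogen and 4.16 to 4.56 in early anagen, overlapping. In these markers the ventral libraries labelled competent telogen went against a label of rest, and those labelled early anagen against a label of growth. The refractory libraries in turn held transcripts of the keratin-associated proteins at a level no lower than in late anagen. Their mean was 9.05 to 9.34 there, beside 8.90 to 8.96 in ventral late anagen, 8.98 to 9.10 in ventral catagen and 8.58 to 8.67 in dorsal refractory telogen. Hair shaft keratins were lower in the refractory libraries than in ventral late anagen (8.66 to 8.73 against 9.03 to 9.08). So were inner root sheath genes (9.28 to 9.83 against 10.11 to 10.17). The labels are kept below as names of the libraries, and why they stand in this order was not tested. Values of the early anagen libraries are given beside many of the results.

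**Figure D1:**
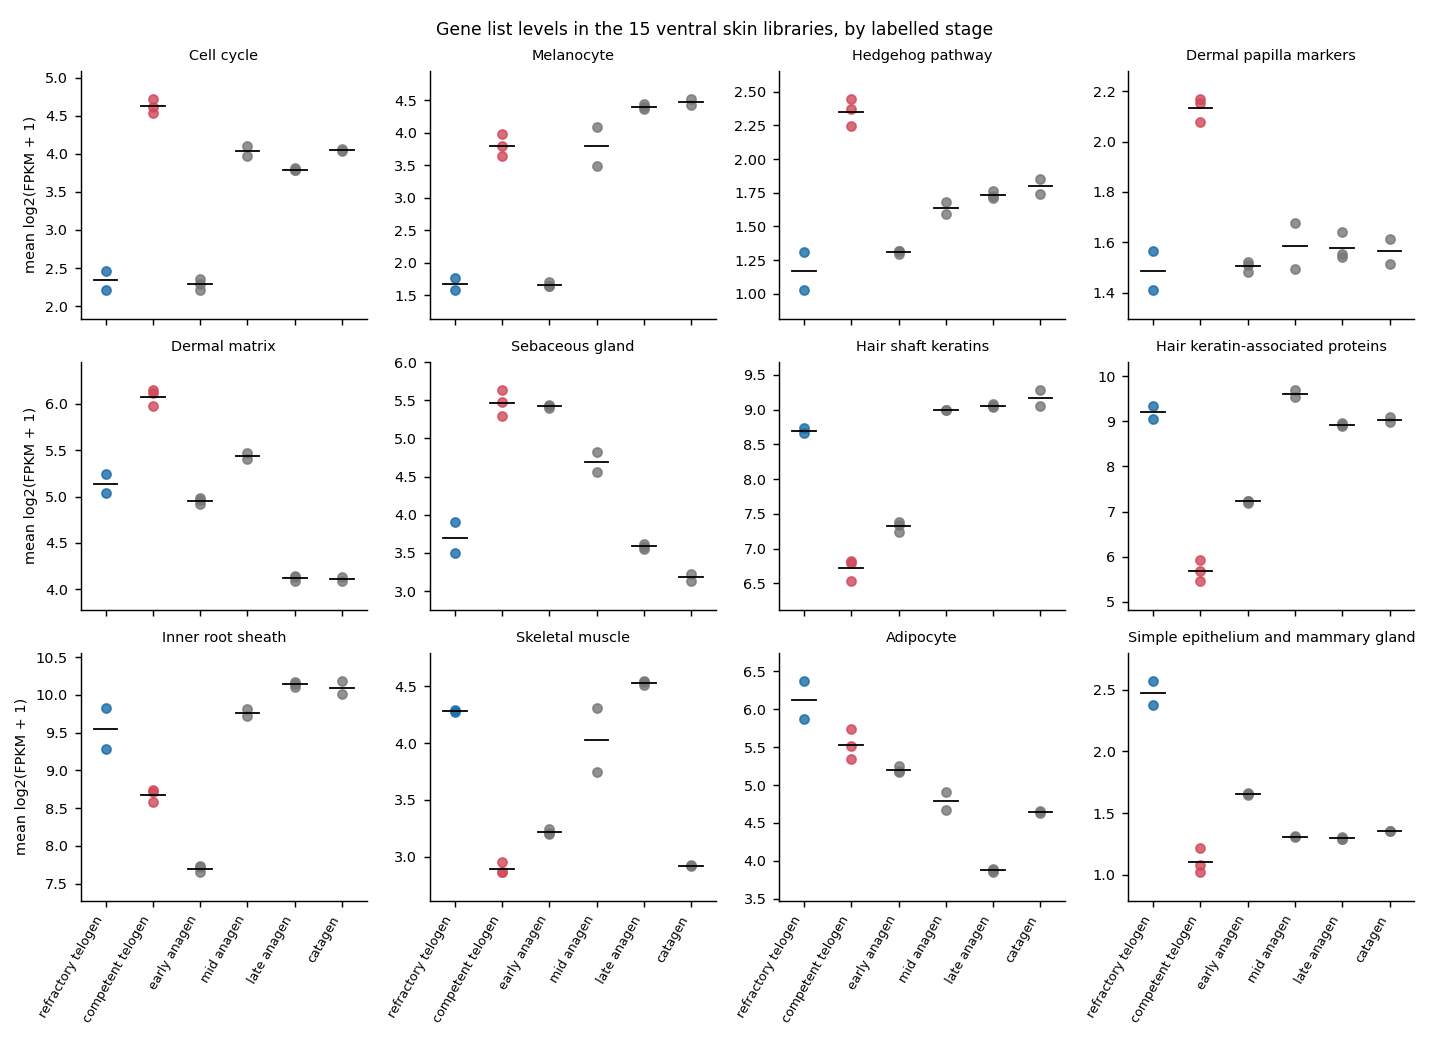
Mean log2(FPKM + 1) of 12 gene lists (panels) in each of the 15 ventral libraries, ordered by labelled stage on the x axis, with 1 point per library. The cell cycle list is at 4.54 to 4.72 in the 3 competent telogen libraries, above every other ventral stage, and at 2.21 to 2.36 in early anagen. The labels of catagen library 1 also name an ear location.

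Across all genes the competent libraries stood mostly higher. Of 16981 genes tested with limma on log2(FPKM + 1), 3842 were called at an adjusted p under 0.05, 3109 of them higher in competent telogen (18.3% of the genes tested) and 733 lower (4.32%). Without adjustment, 6768 genes had a p under 0.05. This split depended on the scaling. The median log2 difference of all genes, competent minus refractory, was 0.31 as deposited, and 80.9% of the calls were higher, against 46.6% after scaling by the median of ratios, 50% after quantile normalization and 89.6% after rescaling to TPM. With the median of ratios, which brings the median of all genes to 0.005, 1358 genes were called higher (8.00%) and 1557 lower (9.17%). All 1358 were also among the 3109 called higher as deposited, all 733 called lower as deposited were among the 1557, and no gene was called in opposite directions. Differences below are therefore read against 0.31, and the counts of most lists are given under both scalings.

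The 7 promoters below are shown because the groups they belong to moved farthest, the mitotic genes and the melanin enzymes upward and the keratin-associated proteins downward. Each line gives the 100 bases before the annotated start, 5′ to 3′ on the gene's strand, from RefSeq on GRCm38.p6, with the motif of that group in capitals on either strand: CCAAT (reverse complement ATTGG) for the cell cycle genes, CATGTG, 1 form of the E-box CANNTG, for the melanocyte genes, and TATAAA for the keratin-associated proteins.
Ccnb2, chr9:70421555-70421654, minus strand: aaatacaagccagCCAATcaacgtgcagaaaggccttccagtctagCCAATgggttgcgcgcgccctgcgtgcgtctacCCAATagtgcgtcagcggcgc
Top2a, chr11:99024190-99024289, minus strand: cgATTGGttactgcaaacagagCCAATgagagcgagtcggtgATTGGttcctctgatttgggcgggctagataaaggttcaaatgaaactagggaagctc
Cdk1, chr10:69352913-69353012, minus strand: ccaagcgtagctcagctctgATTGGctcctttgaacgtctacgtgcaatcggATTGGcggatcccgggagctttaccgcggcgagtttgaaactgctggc
Tyr, chr7:87493513-87493612, minus strand: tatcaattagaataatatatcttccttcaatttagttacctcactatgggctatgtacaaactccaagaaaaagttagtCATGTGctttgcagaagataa
Tyrp1, chr4:80834113-80834212, plus strand: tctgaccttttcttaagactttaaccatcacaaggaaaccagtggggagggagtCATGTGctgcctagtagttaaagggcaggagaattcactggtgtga
Krtap6-3, chr16:89083924-89084023, plus strand: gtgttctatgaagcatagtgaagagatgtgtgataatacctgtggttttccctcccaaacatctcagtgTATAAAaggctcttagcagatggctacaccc
Krtap20-2, chr16:89205761-89205860, plus strand: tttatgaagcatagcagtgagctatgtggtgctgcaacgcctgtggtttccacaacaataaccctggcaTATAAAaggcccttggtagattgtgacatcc
Over 250 bases before the start and both strands, CCAAT was found in 21 of 24 promoters of the 23 cell cycle genes that have an entry, of 29 in the list, beside 33.8% of all 32851 promoters. CATGTG was found in 6 of 9 promoters of the 7 melanocyte genes with an entry, of 11, beside 12.3% of all promoters. TATAAA was found in 40 of 50 promoters of as many keratin-associated protein genes, of 55 tested, beside 12.4%. These matches describe the letters in the windows and are not binding sites.

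Genes of cell division stood higher in every competent library. All 29 of the cell cycle list were called higher, as deposited and with the median of ratios, and their median log2 difference was 2.20 as deposited, beside 0.31 for all genes. All 29 were also called with any of the 5 libraries left out. Aurkb, the kinase of the chromosomal passenger complex, had 2.39 and 2.5 FPKM in the refractory libraries and 34.3, 35.1 and 27.4 FPKM in the competent ones (3.26 ± 0.18, log2 difference ± SE, as throughout; adjusted p = 0.000467). Ccnb1, the cyclin of mitotic entry, had 8.62 and 4.27 against 55.2, 57.5 and 51.9 FPKM (2.97 ± 0.27), and its partner kinase Cdk1 had 16.3 and 15.6 against 117, 109.9 and 85.2 FPKM (2.62 ± 0.19). Top2a, the topoisomerase that separates sister chromatids, had 8.74 and 11.2 against 43.3, 52.7 and 48.9 FPKM (2.17 ± 0.18). Every competent value lay above both refractory values for all 4, but the groups did not overlap, in either direction, for 56.5% of all genes tested and for all 3842 called. Pcna, the replication clamp, had 32.7 and 37.2 against 92.5, 107 and 93.98 FPKM (1.46 ± 0.16), and Mcm3 of the replicative helicase had the smallest difference of the list (1.26 ± 0.18). In ventral early anagen against the same refractory libraries, 1 gene of the list was called higher and the median was -0.08. That comparison called 6.96% of 16889 genes higher and 5.41% lower, with a median of 0.14 over all genes.

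Melanocyte genes rose with them. Of 11 tested, 9 were called higher under both scalings, with a median of 2.15, and 8 or 9 were called higher whichever library was left out. Pmel, which builds the fibrils on which melanin is laid down, had 3.38 and 1.9 FPKM in the refractory and 72.2, 82.6 and 57.3 FPKM in the competent libraries (4.31 ± 0.25, adjusted p = 0.000534). Dct and Tyrp1, enzymes of eumelanin synthesis, had 5.21 and 4.74 against 52.8, 65.1 and 49.9 FPKM (3.24 ± 0.18) and 2.1 and 0.51 against 19.7, 27.6 and 17.6 FPKM (3.36 ± 0.35). Tyr, the rate-limiting enzyme of melanin synthesis, had 1.77 and 3.95 against 9.77, 11.8 and 9.97 FPKM (1.63 ± 0.28). Neither of the transcription factors that mark the lineage was called higher. Sox10, a factor of melanocytes and Schwann cells, had 3.44 and 3.31 against 4.67, 4.61 and 3.57 FPKM (0.27 ± 0.19, adjusted p = 0.336). Mitf, the melanocyte master regulator, which has other promoters in other cells, had 18.3 and 9.36 against 7.25, 7.01 and 6.83 FPKM (-0.82 ± 0.28, adjusted p = 0.0806) and was called lower with the median of ratios. In early anagen the list had a median of 0.10 over refractory telogen.

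Hedgehog genes, the relay from the follicle's germ to its papilla and dermis, were also higher. Of 8 tested, 6 were called higher as deposited and 5 with the median of ratios (median 1.36). Shh, the ligand, had 2.14 and 0.6 FPKM in the refractory and 9.05, 11.9 and 8.82 FPKM in the competent libraries (2.27 ± 0.32, adjusted p = 0.0069). The genes that the signal induces rose too. Hhip, an induced decoy receptor, had 0.3 and 0.28 against 6.52, 7.13 and 6.09 FPKM (2.55 ± 0.18), and Gli1, the induced transcription factor, had 0.48 and 0.34 against 5.4, 3.92 and 3.92 FPKM (1.93 ± 0.20). Ptch1 (1.45 ± 0.25) and Gli3 (1.26 ± 0.22) rose less, and the call of Smo (0.69 ± 0.16) was lost with the median of ratios. Neither Gli2 (0.41 ± 0.18) nor Dhh (-0.02 ± 0.19) was called. Without competent library 1 or 2, 3 of the 8 were called higher, and the count was 5 or 6 without any of the other libraries. None of the list was called between early anagen and refractory telogen.

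WNT ligands were higher only by a margin that the scaling decides. As deposited 5 of 13 tested were called higher and none lower (median 0.61), and with the median of ratios 1, Wnt10b, was. Early anagen over refractory telogen gave 0 higher and 2 lower, with a median of 0.01. Wnt10b, a ligand of the early growing follicle, had 0.59 and 0.26 against 1.7, 2.72 and 1.85 FPKM (1.11 ± 0.22, adjusted p = 0.0192). The more abundant Wnt10a of the follicle epithelium had 21.9 and 14.1 against 40.7, 38.5 and 29.4 FPKM (0.99 ± 0.25), and Wnt11 had 19.7 and 13.97 against 45.1, 43.2 and 28.4 FPKM (1.15 ± 0.26). Wnt6 (0.95 ± 0.21) and Wnt16 (0.71 ± 0.18) were the other 2 called as deposited. The ligands that were not called had differences from -0.50 (Wnt2) to 0.75 (Wnt5a, 21.1 and 11.6 against 25.2, 31.2 and 25.03 FPKM), with Wnt3a, Wnt5b, Wnt4, Wnt3, Wnt7b and Wnt9a between them. Without competent library 1, 2 or 3 the count fell to 1, 1 and 2, without refractory library 2 it fell to 1, and without refractory library 1 it was 8.

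The antagonists of WNT are mostly secreted, while Kremen1, Kremen2 and Apcdd1 sit in the membrane. Of 14 tested, 6 were called higher as deposited (median 0.76), and with the median of ratios 4 were called higher and 1, Dkk2, lower. With early anagen in place of competent telogen 1 was higher and 2 were lower, with a median of 0.27. Wif1, which binds WNT ligands outside the cell, lies on GRCm38 at chr10:121033960-121100650 and had 4.64 and 5.32 FPKM in the refractory and 69.8, 69.2 and 68.1 FPKM in the competent libraries (3.55 ± 0.15, adjusted p = 0.000141). In ventral early anagen it had 2.62, 2.81 and 2.82 FPKM. Kremen2, a co-receptor of DKK proteins, had 1.55 and 2.39 against 10.5, 9.05 and 8.38 FPKM (1.81 ± 0.21), Sfrp1, another WNT-binding protein, had 17.7 and 15.8 against 43.01, 50.2 and 42.2 FPKM (1.38 ± 0.17), and Notum, which removes the lipid that WNT proteins need, had 4.98 and 4.47 against 13.8, 12.3 and 9.8 FPKM (1.17 ± 0.20). All 4 kept their call under both scalings. Sfrp4 (1.17 ± 0.25) was called as deposited only, and so was Dkk1, which was listed at 0 in both refractory libraries and at 0.4, 0.88 and 0.52 FPKM in the competent ones. Dkk3, Sfrp2, Kremen1, Apcdd1 and Frzb had differences from 0.61 to 0.81 and were not called. Dkk2 (-0.51 ± 0.18), Sfrp5 (-0.31 ± 0.19) and Dkkl1 (-0.27 ± 0.20) lay below 0 without a call as deposited. The count called higher was 3, 3 and 5 without competent library 1, 2 or 3, and 9 and 5 without refractory library 1 or 2.

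Genes that WNT signalling induces were split. Of 10 tested, 3 were called higher under both scalings, and 2, Axin2 and Lgr5, were called lower with the median of ratios. Early anagen over refractory telogen gave 0 higher and 2 lower, with a median of -0.15. Lef1, a transcription factor of the pathway and of the hair matrix, had 11.2 and 5.26 against 38.9, 50.6 and 52.97 FPKM (2.46 ± 0.31, adjusted p = 0.0047). Ccnd1, a cyclin of cell cycle entry, had 19.01 and 15.2 against 65.3, 72.6 and 62.2 FPKM (1.91 ± 0.17), and Znrf3, a ligase that removes WNT receptors, had 12.4 and 11 against 42.3, 51.1 and 39.1 FPKM (1.82 ± 0.18). Axin2, the common feedback target, had 5.78 and 4.29 against 3.98, 4.48 and 3.57 FPKM (-0.26 ± 0.20, adjusted p = 0.371), and Lgr5, an R-spondin receptor of follicle stem cells, had 15.04 and 11.1 against 8.85, 10.5 and 8.79 FPKM (-0.43 ± 0.20). Nkd2, Sp5, Rnf43, Nkd1 and Tcf7 had differences from 0.20 to 0.62, without a call. The count was 3 with any competent library or refractory library 2 left out, and 5 without refractory library 1.

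The dermal papilla list, which holds the R-spondins that amplify WNT signals, had 8 of 12 tested called higher as deposited and 4 with the median of ratios (median 0.74). With early anagen in place of competent telogen 2 were higher and 1 was lower, with a median of -0.05. Rspo3 had 1.8 and 1.42 against 7.98, 10.4 and 7.18 FPKM (1.86 ± 0.22, adjusted p = 0.0036). Vcan, a proteoglycan of the active papilla, had 1.76 and 1.76 against 6.67, 7.93 and 7.86 FPKM (1.62 ± 0.18), Sox18, a transcription factor of the papilla and of vessels, had 6.45 and 6.17 against 20.3, 19.1 and 13.2 FPKM (1.32 ± 0.23), and Alpl, the alkaline phosphatase by which the papilla is stained, had 1.56 and 1.02 against 3.96, 3.62 and 3.72 FPKM (1.07 ± 0.19). These 4 kept their call under both scalings, and Rspo1, Rspo2, Rspo4 and Tbx18 (0.98, 0.81, 0.65 and 0.66) did not. Alx4 and Ptprz1 (0.44 and 0.41), Crabp1 (-0.11 ± 0.20) and Prdm1 (-0.42 ± 0.29) were not called. Leaving out competent library 1, 2 or 3 left 3, 2 and 4 called, and leaving out refractory library 1 or 2 left 6 and 5.

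No BMP ligand was called. Of the 8 BMP and GDF ligands tested with limma none passed the adjusted threshold as deposited, 3 had an unadjusted p under 0.05 (1 higher and 2 lower), their median was -0.05, and with the median of ratios Bmp7 and Gdf10 were called lower. Bmp4, a ligand of the papilla and dermis, had 41.7 and 30.7 against 42.7, 29.2 and 32.1 FPKM, a difference of -0.06 with a 95% interval from -0.61 to 0.49. Bmp2, which fat and the follicle secrete in refractory telogen, had 8.67 and 6.79 against 6.85, 9.01 and 6.74 FPKM, a difference of -0.03 with an interval from -0.54 to 0.47. The groups overlapped for both genes, and the intervals hold changes in either direction. Bmp7 had 23.6 and 23.2 against 16.6, 15.04 and 16.8 FPKM (-0.51 ± 0.16, adjusted p = 0.0602), and Gdf10 had 11.97 and 7.23 against 5.51, 4.34 and 4.35 FPKM (-0.86 ± 0.25, adjusted p = 0.053). Bmp3 (0.70 ± 0.23), Bmp8a (-0.28 ± 0.24), Bmp6 (-0.03 ± 0.20) and Gdf11 (0.02 ± 0.22) were not called under either scaling. Early anagen over refractory telogen gave 0 higher and 1 lower of the 8, with a median of -0.11.

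Of 11 BMP antagonists tested, 3 were called higher as deposited (median 0.17) and none with the median of ratios. With early anagen in place of competent telogen 2 were higher and 0 lower, with a median of -0.12. Sostdc1, which binds BMPs and the WNT co-receptor, had 84.6 and 90.1 against 173, 171 and 173 FPKM (0.97 ± 0.14, adjusted p = 0.0075). Fst, which binds activins and BMPs, had 18.4 and 21.2 against 34.4, 37.6 and 34 FPKM (0.81 ± 0.16), and its relative Fstl1 had 135 and 91.3 against 200.4, 232 and 192 FPKM (0.89 ± 0.21). Nog, a direct BMP antagonist, had 1.98 and 0.63 against 1.02, 1.56 and 1.18 FPKM (0.02 ± 0.29), with both groups overlapping. Twsg1, Bmper, Nbl1, Grem1, Chrd, Chrdl1 and Fstl3 lay between -0.22 and 0.73, without a call. The count was 1 without any of the competent libraries, 5 without refractory library 1 and 2 without refractory library 2. Among 7 genes that respond to BMP, Id2 alone was called higher (138 and 96.5 against 177, 221 and 212 FPKM, 0.80 ± 0.21), a call lost with the median of ratios and without any competent library. Id1, the usual readout of the pathway, had 117 and 213 against 146, 159.8 and 130.1 FPKM (-0.13 ± 0.27). Smad7, an inhibitor induced by TGF-beta and BMP, had 9.14 and 6.58 against 4.62, 4.72 and 3.97 FPKM (-0.69 ± 0.21, adjusted p = 0.0557) and was called lower with the median of ratios, and Id3, Id4, Smad6 and Bambi had differences from -0.36 to 0.75 without a call.

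**Figure D2:**
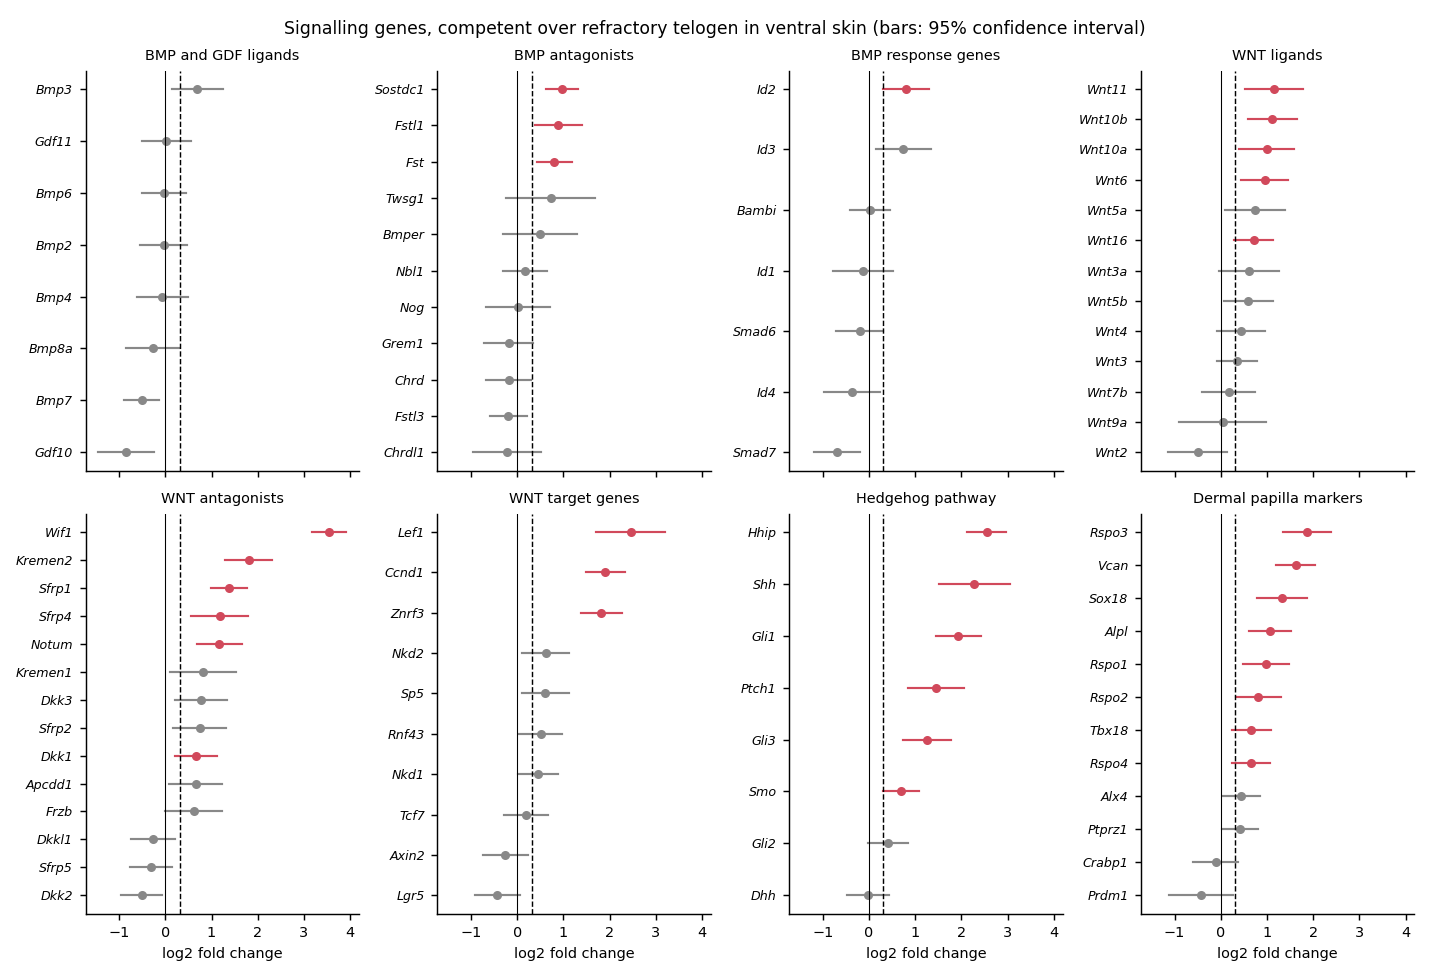
Log2 difference of competent minus refractory ventral telogen for the members of 8 signalling lists, with the 95% interval of the limma fit; the solid line is at 0 and the dashed line at 0.31, the median of all genes. Hedgehog targets and Wif1 lie far to the right of the dashed line, and the intervals of most BMP genes cross it.

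FGF and TGF-beta genes split by member. As deposited, 1 of 12 FGF and 2 of 11 TGF-beta and activin genes were called higher. Neither share exceeded the 18.3% of all genes called higher. Those called lower, 3 of 12 and 1 of 11, stood beside 4.32% of all genes, but the lists are short. With the median of ratios, 8.00% of all genes were called higher and 9.17% lower. Of 12 FGF ligands and receptors tested, 1 was called higher and 3 lower under both scalings, but 1 lower without competent library 1, 2 without competent library 2 or 3 or refractory library 2, and 4 higher without refractory library 1. Fgf7, a growth factor from papilla to epithelium, had 2.87 and 1.38 against 10.1, 9.34 and 8.38 FPKM (1.76 ± 0.25, adjusted p = 0.0074). Fgf18, known as a signal that holds follicles in telogen, had 3.53 and 3.51 against 0.83, 0.8 and 1.31 FPKM (-1.20 ± 0.19, adjusted p = 0.0104), and Fgf22, a factor of the hair shaft, had 54.2 and 61.9 against 29.2, 25.03 and 25.2 FPKM (-1.10 ± 0.16). Fgf21 fell from 1.5 and 1.88 to 0.56, 0.69 and 0.25 FPKM (-0.85 ± 0.20). Fgf5, which ends anagen, had 1.72 and 1.6 against 1.42, 1.93 and 1.71 FPKM (0.01 ± 0.18), Fgf1, Fgf2 and Fgf10 had -0.53, -0.07 and 0.25, and the receptors Fgfr1 to Fgfr4 had 0.72, 0.69, 0.37 and 0.40, none of them called. Of 11 TGF-beta and activin genes, Tgfb3 (2.86 and 1.19 against 6.05, 6.48 and 5.7 FPKM, 1.28 ± 0.27) was called higher under both scalings, and Ltbp1 (1.17 ± 0.20), which stores the ligand in the matrix, as deposited only. Inhba, a subunit of activin, had 11.4 and 8.86 against 5.1, 6.5 and 4.8 FPKM (-0.78 ± 0.21, adjusted p = 0.0428) and was called lower, as were also Inhbb and Acvr1 (-0.69 and -0.55) with the median of ratios. Without competent library 1 none of these genes was called by limma in either direction, without competent library 2 or 3 there was 1 higher and none lower, and without refractory library 1 or 2 there were 4 and 2 higher and 0 and 2 lower. Tgfb2, a ligand of the papilla, had 7.55 and 3.99 against 4.92, 5.43 and 5.12 FPKM (-0.09 ± 0.26), with both groups overlapping.

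Markers of the bulge stem cells had differences both ways, from -0.77 to 1.11. Of 15 tested, 4 were called higher as deposited (26.7%, beside 18.3% of all genes), which left 1 higher and 3 lower with the median of ratios, and their median of 0.31 was that of all genes. Early anagen over refractory telogen gave 4 higher and 0 lower, with a median of 0.53. Krt15, the bulge keratin, had 2180.4 and 1539 against 2504, 2111 and 2224 FPKM (0.31 ± 0.21), and Sox9 had 171 and 91.9 against 96.7, 132 and 113 FPKM (-0.15 ± 0.29). The groups overlapped for both. Tcf7l2, a transcription factor of WNT signalling, had 39.9 and 29.4 against 67.9, 74.5 and 84.6 FPKM (1.11 ± 0.20) and kept its call, while Cd34 (0.80 ± 0.19), Tbx1 (0.91 ± 0.22) and Nfatc1 (0.70 ± 0.20) lost theirs. Foxc1, Runx1 and Lgr5 (-0.77, -0.43 and -0.43) were the 3 called lower with the median of ratios, and Tcf7l1, Lgr6, Col17a1, Lhx2, Lrig1 and Gas1 had differences from -0.21 to 0.73, without a call as deposited. No competent library could be left out without losing calls (1, 0 and 2 remained), and without refractory library 1 or 2 there were 7 and 2.

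The keratin-associated proteins fell farthest of all groups. Of 55 tested, 51 were called lower as deposited and 52 with the median of ratios, their median difference was -3.005, and 1 was called higher as deposited. They took 10.7% and 11.5% of the summed FPKM in the refractory libraries, 0.675% to 0.895% in the competent ones, and 4.09% to 4.23% in ventral early anagen. Between 47 and 51 were called lower with any 1 library left out. Many members are near-identical copies that share reads, so the split of reads between neighbours is uncertain. The family was grouped by protein class after the values had been seen. The high glycine-tyrosine class had a median of -6.22 over 15 genes, all called lower, beside -2.33 for the high sulphur class (14 of 16 lower), -2.51 for the ultrahigh sulphur class (15 of 17 lower) and -1.75 for 7 others, all lower. In early anagen over refractory telogen these medians were -1.04, -1.70, -2.12 and -1.93, so the order of the classes was not the same there.

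Krtap6-3, a high glycine-tyrosine protein encoded on GRCm38 at chr16:89084015-89084534, whose promoter is shown above, had 6139 and 6909 FPKM in the refractory and 4.62, 2.87 and 3.73 FPKM in the competent libraries (-10.44 ± 0.20, adjusted p = 9.8e-06). Krtap20-2, at chr16:89205861-89206394 in the same cluster, had 2272 and 3139.9 against 1.66, 1.22 and 1.02 FPKM (-10.19 ± 0.21). In ventral early anagen Krtap6-3 was between, at 2224, 2013 and 2009.5 FPKM. Krtap22-2 was the most abundant of the named members, with 14188 and 19465 against 192, 271 and 222 FPKM (-6.19 ± 0.23). The other 9 among the 12 largest falls had differences of -8.01 (Krtap6-2), -7.53 (Krtap6-1), -7.41 (Krtap6-5), -7.25 (Krtap21-1), -7.12 (Krtap19-9b), -6.22 (Krtap19-5), -5.96 (Krtap31-1), -5.19 (Krtap16-3) and -5.03 (Krtap19-1). All 12 largest falls that passed the naming rule were thus keratin-associated proteins.

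Keratins of the hair shaft fell with 1 exception among the calls. Of 12 tested, 10 were called lower as deposited and 11 with the median of ratios (median -1.99). Krt84 had 47.1 and 25.1 against 0.3, 0.21 and 0.24 FPKM (-4.83 ± 0.28, adjusted p = 0.000534), and Krt81 had 1469.6 and 1946 against 210.5, 201 and 149 FPKM (-3.19 ± 0.22). Krt34 (-3.16 ± 0.18), Krt33b (-3.08 ± 0.19) and Krt86 (-2.75 ± 0.18) also fell by more than the median of the list. Krt35, a keratin of the hair matrix and cuticle, had 369 and 381 against 762, 768 and 639.7 FPKM (0.94 ± 0.16, adjusted p = 0.0123), a rise that was not called with the median of ratios. In early anagen Krt35 was lower than in refractory telogen (-1.94) and Krt84 higher (108, 109 and 110.5 FPKM, 1.64). Keratins of the inner root sheath, the mould around the shaft, fell less: 4 of 9 were called lower as deposited and 6 with the median of ratios (median -1.08), and 2 without competent library 1 and 6 without refractory library 2. Krt72 had 843 and 773 against 303, 298 and 249.8 FPKM (-1.51 ± 0.16) and Krt25 had 2080.3 and 2034 against 983, 1018 and 929 FPKM (-1.07 ± 0.15), whereas Krt73 had 802 and 423 against 599.97, 562 and 487 FPKM (-0.09 ± 0.29).

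Transcription factors of the hair matrix moved apart from the shaft genes. Of 6 tested, 3 were called higher as deposited (median 0.75), and with the median of ratios 1 was higher and 1, Foxn1, lower. The count called higher was 2, 1 and 2 without competent library 1, 2 or 3, and 4 and 2 without refractory library 1 or 2. In early anagen none was higher and 3 were lower, with a median of -0.94. Msx1 had 14.8 and 7.17 against 108, 103 and 82.6 FPKM (3.11 ± 0.30, adjusted p = 0.0019), Gata3, a factor of the inner root sheath, had 184 and 188 against 361, 362 and 340.2 FPKM (0.92 ± 0.14), and Msx2 had 50.7 and 47.3 against 77.5, 75.3 and 68.8 FPKM (0.58 ± 0.15). Hoxc13, a regulator of shaft keratins, had 58.9 and 52.3 against 52.5, 62.2 and 59.7 FPKM (0.06 ± 0.16), and its groups overlapped. Foxn1 had 23.3 and 18.7 against 15.3, 12.6 and 12.8 FPKM (-0.59 ± 0.19), and Dlx3 had 0.95 ± 0.32 without a call. Among keratins of the companion layer and of stressed epidermis, Krt16 fell from 83.2 and 100.1 to 4.59, 10.1 and 4 FPKM (-3.77 ± 0.36), Krt6a (-1.67 ± 0.16) and Krt75 (-1.16 ± 0.16) also fell, and Krt79, a keratin of the upper follicle's duct, rose from 189 and 236 to 654, 631 and 563 FPKM (1.54 ± 0.17). In ventral early anagen Krt16 and Krt6a were higher than in refractory telogen (2.45 and 1.11). Of the 6 keratins of the interfollicular epidermis, 1 was called lower and none higher, and with the median of ratios 3 were lower. No call of these keratins was left without competent library 1, 2 or 3. Of 33 tested entries of the cornified envelope 7 were called higher and 3 lower as deposited, against 1 and 5 with the median of ratios, so the balance turned with the scaling. The count called higher was 0, 0 and 4 without competent library 1, 2 or 3, and 9 and 13 without refractory library 1 or 2.

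Genes of the sebaceous gland, which secretes lipid onto the hair, were higher. Of 11 tested, 8 were called higher under both scalings (median 1.22), and 7 to 10 were with any library left out. Scd3, a fatty acid desaturase of the gland, had 3.01 and 3.22 against 83.8, 46.97 and 80.2 FPKM (4.07 ± 0.28, adjusted p = 0.000746). Awat1 and Awat2, which make wax esters, had 12.8 and 15.1 against 108, 62.3 and 83.95 FPKM (2.49 ± 0.25) and 4.51 and 3.18 against 40.9, 25.6 and 31.3 FPKM (2.78 ± 0.25). Far2, which makes the fatty alcohols for them, had 16.3 and 10.98 against 86.4, 68.7 and 82.5 FPKM (2.47 ± 0.22). Scd1, which fat also expresses, had 504 and 199 against 316, 276 and 292 FPKM (-0.11 ± 0.37), and neither Mc5r nor Fads6 was called. In early anagen against the same refractory libraries, 7 of the 11 were higher and 1 lower (median 1.64). Scd3 had 90.8, 87.2 and 89.2 FPKM in early anagen.

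Genes of the dermal matrix were higher as deposited in 20 of 27 tested and in 11 with the median of ratios, none lower under either (median 0.85). With early anagen in place of competent telogen 4 were higher and 5 lower, with a median of -0.21. Col1a1 and Col1a2, the chains of type I collagen, had 798 and 449 against 1957, 1994 and 2192 FPKM (1.77 ± 0.26) and 443 and 419.9 against 1332, 1374 and 1359 FPKM (1.65 ± 0.15). Mfap4, a protein of elastic fibres, had 81.2 and 98.6 against 377, 324 and 306 FPKM (1.89 ± 0.18, adjusted p = 0.0017), and Eln, elastin itself, had 22.8 and 20.2 against 48.8, 46.6 and 45.4 FPKM (1.09 ± 0.15). These 4 kept their call with the median of ratios, while Dcn (0.82 ± 0.15) and Lum (0.80 ± 0.16), small proteoglycans on collagen fibrils, did not. Sparc had 1459 and 1908 against 2513, 2205 and 2311 FPKM (0.49 ± 0.19). The count was 8, 8 and 12 without competent library 1, 2 or 3, and 22 and 18 without refractory library 1 or 2.

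Skeletal muscle genes, from the thin muscle sheet under the skin, were lower. Of 26 tested, 18 were called lower as deposited and 21 with the median of ratios (median -1.75). Acta1, skeletal actin, had 233 and 268 against 79.2, 66.5 and 65.9 FPKM (-1.82 ± 0.17, adjusted p = 0.0016), Ckm, the muscle creatine kinase, had 113 and 124 against 29.9, 29.2 and 24.7 FPKM (-2.05 ± 0.16), and Pvalb, the calcium buffer of fast fibres, had 47.9 and 91.01 against 7.63, 7.35 and 10.1 FPKM (-2.85 ± 0.30). Tnni1, the troponin of slow fibres, was the 1 member called higher, with 2.66 and 3.98 against 9.73, 10.3 and 7.42 FPKM (1.24 ± 0.23), and that call was lost with the median of ratios. Between 16 and 19 were lower with any library left out, and 17 were lower in early anagen. How much muscle each dissection held was not measured. Fat genes leaned the same way: of 26 adipocyte genes, 8 were called lower and 2 higher as deposited, and 17 lower and none higher with the median of ratios (median -0.55). Adipoq, the hormone adiponectin, had 421 and 509.6 against 191, 131 and 149 FPKM (-1.58 ± 0.21, adjusted p = 0.0057), Thrsp, of fatty acid synthesis, had 226 and 192 against 61.3, 35.6 and 48.3 FPKM (-2.11 ± 0.25), and Fabp4, the fatty acid carrier, had 2388 and 2591 against 823, 772 and 1232 FPKM (-1.43 ± 0.24). Pparg, the regulator of fat cell identity, had 17.4 and 12.03 against 14.7, 12.4 and 14.1 FPKM (-0.08 ± 0.21), with the groups overlapping, and refractory library 2 lay below refractory library 1 for Lep (10.8 and 2.9 against 5.15, 3.61 and 4.35 FPKM). The count called lower was 5, 3 and 5 without competent library 1, 2 or 3, and 8 and 11 without refractory library 1 or 2.

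Markers of simple epithelium and mammary gland, which the ventrum carries beneath the skin, were higher in the refractory than in the competent libraries. Of 16 listed, 11 passed the filter and 7 of them were called lower, 8 with the median of ratios (median -2.52). Krt18 and Krt8, keratins of simple epithelium, had 55.4 and 61.9 against 2.96, 4.85 and 2.96 FPKM (-3.72 ± 0.23) and 24.1 and 28.6 against 2.75, 3.6 and 2.71 FPKM (-2.77 ± 0.19). Csn3, a milk casein, had 12.99 and 22.6 against 0.83, 2.55 and 0.77 FPKM (-3.01 ± 0.39), and Upk3a, a uroplakin, had 24.96 and 20.7 against 0.63, 0.28 and 0.54 FPKM (-4.01 ± 0.20, adjusted p = 0.000298). Upk3a was listed at 0 in all 4 dorsal and all 5 chin telogen libraries. The mean level of the list was 2.38 to 2.57 on the log2(FPKM + 1) scale in the refractory and 1.02 to 1.22 in the competent libraries, without overlap. It was 1.64 to 1.66 in ventral early anagen, 1.30 to 1.31 in mid anagen, 1.29 to 1.31 in late anagen and 1.35 to 1.36 in catagen. The refractory libraries were thus the highest of all ventral stages. Why was not tested, nor was the part of this list in the other differences. Genes of immune cells were mostly not called. None of 18 macrophage, 10 T cell, 7 class II or 5 blood genes was called as deposited by limma, 7, 2, 0 and 0 of them had an unadjusted p under 0.05, and their medians of 0.31, 0.46, 0.11 and -0.05 lay near that of all genes. In other immune lists some members were called, where 18.3% of all genes were higher and 4.32% lower as deposited. As deposited 2 of 8 mast cell genes were higher (1 with the median of ratios), and 2 of 25 chemokines higher and 3 lower (1 and 5). Of 4 neutrophil and alarmin genes 1 was higher, and of 14 interferon response genes 1 was lower (2). These were Cpa3 and Hdc (1.16 and 0.74), Ccl19 and Ccl4 (1.01 and 0.83), Cxcl15, Ccl27a and Ccl25 (-1.07, -0.83 and -0.70), Camp (1.17) and Ifi27l2a (-1.87), named after their values were seen. The chemokines called higher (8.0%) lay below the share of all genes, and the other lists are short. Without competent library 1 there was 1 call among the mast cell genes and none among the chemokines. Vessels (2 of 15 called higher, 13.3%, below the share of all genes) and Schwann cells (none of 8 called) had medians of 0.17 and 0.09. Of the Schwann cell genes 2 were lower at an unadjusted p under 0.05. With the median of ratios 1 macrophage gene and 2 Schwann cell genes were called lower, and 1 vessel gene was called higher and 1 lower. The vessel count was 0 without competent library 1 and 3 without refractory library 1.

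By the naming rule, the 12 genes with the largest rises held 3 histone genes, 2 serpins and members of lists already described (Pmel, Scd3 and Wif1). Serpinb6e, a protease inhibitor at chr13:33832345-33843408, had 0.47 and 0.5 against 47.01, 30.4 and 50.99 FPKM (4.85 ± 0.25, adjusted p = 0.000356). Gnmt, which transfers a methyl group to glycine, had 5.38 and 4.82 against 173, 194 and 121 FPKM (4.72 ± 0.23). Neither overlapped between the groups, which the naming rule requires. Hamp2, a paralog of the iron hormone hepcidin, had 10.8 and 13.3 against 184, 119 and 148 FPKM (3.52 ± 0.22), and Serpina3j had 8.57 and 8.5 against 171, 111 and 148 FPKM (3.90 ± 0.21). Ces4a, a carboxylesterase, had 0.69 and 1.37 against 27.4, 17.4 and 23.4 FPKM (3.54 ± 0.26). In early anagen, Serpinb6e, Hamp2, Serpina3j and Ces4a were also above refractory telogen, with 72.1, 70.8 and 66.5, 644, 604 and 618, 151, 145 and 156 and 21.3, 21.4 and 21.8 FPKM. Gnmt was not, with 4.01, 2.35 and 2.66 FPKM. Mycn, a transcription factor of growing progenitors, had 1.78 and 0.58 against 21.96, 27.8 and 19.4 FPKM (3.51 ± 0.29). The histone genes are copies of each other whose reads may be shared. Hist1h2ae had 7.21 and 14.4 against 146, 169 and 141 FPKM (3.76 ± 0.28), Hist1h2an had 0 and 1.51 against 20.7, 17.3 and 16.6 FPKM, and Hist1h2ag was listed at 0 in both refractory libraries and at 17.4, 23.2 and 19.04 FPKM in the competent ones. All 24 of the largest rises and falls kept their direction and their call under every alternative run on the competent and refractory libraries. They were chosen by size among calls in the same libraries, so this is no independent check.

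**Figure D3:**
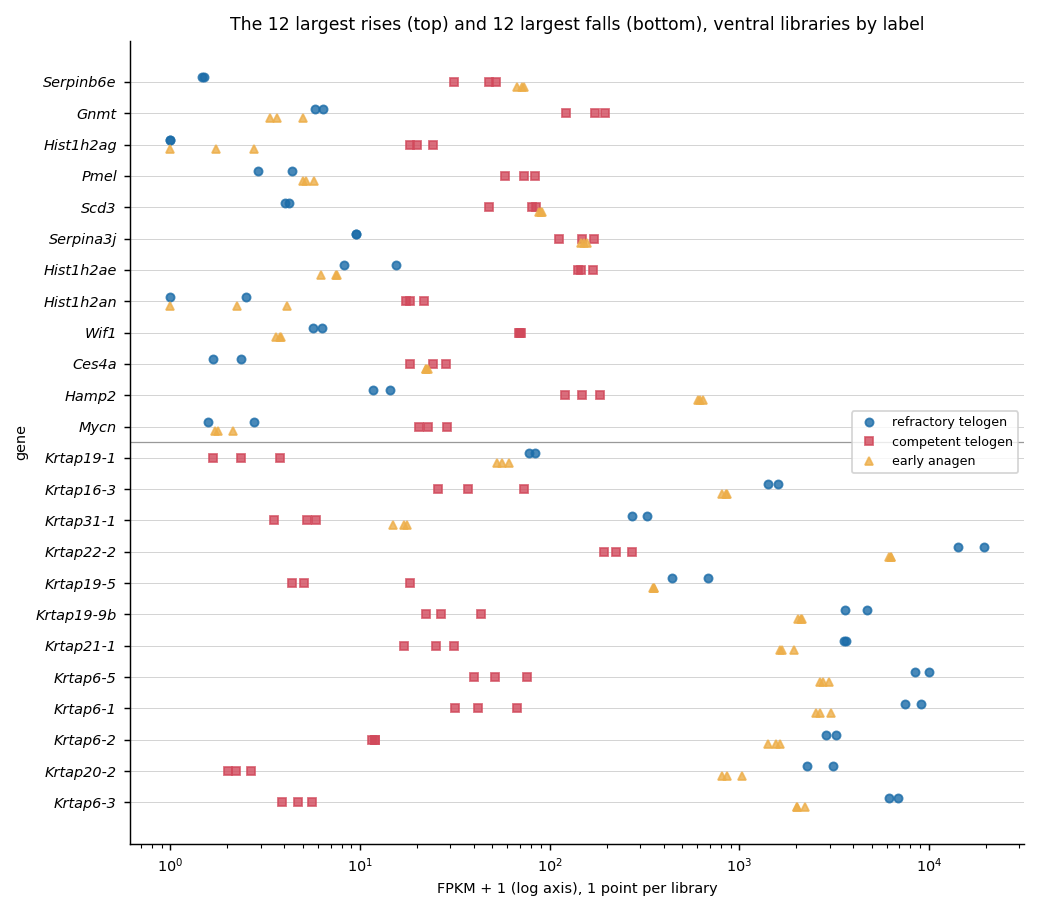
FPKM + 1 (log axis) of the 12 largest rises and 12 largest falls in the 2 refractory and 3 competent telogen libraries and the 3 ventral early anagen libraries, with 1 point per library. Krtap6-3 goes from 6139 and 6909 FPKM to between 2.87 and 4.62, and its early anagen points lie between 2009.5 and 2224.

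The study had set up lists of putative activators and inhibitors of hair growth from a published microarray time course of whole skin, which are other samples than these. Of 233 activators tested, 139 were called higher (59.7%) and 3 lower (1.3%) as deposited, and 105 and 10 with the median of ratios (median 0.99). The shares of all genes were 18.3% and 4.32% as deposited, and 8.00% and 9.17% with the median of ratios. Of 119 inhibitors (median 0.12), 17 were called higher (14.3%) and 4 lower (3.4%) as deposited, no more than the shares of all genes. With the median of ratios 9 were higher and 24 lower, so the balance of the inhibitors turned with the scaling, as did that of all genes. Among those leading the activators were Wif1, Aurkb and cyclins described above. The study tabulates Wif1 with the activators by its time course, while its text counts it with the inhibitors. Per1, a clock gene, Fgf18 and Psmb9, a proteasome subunit, were the 3 activators called lower, and Per1 had 14.2 and 9.04 against 3.9, 3.38 and 3.6 FPKM (-1.42 ± 0.23). Among the inhibitors Msx1 and Lef1 rose most, and Pla2g2e, a secreted phospholipase, fell from 112 and 103 to 31.2, 26.96 and 27.1 FPKM (-1.88 ± 0.16). The count of activators called higher was 94, 89 and 105 without competent library 1, 2 or 3 and 156 and 125 without refractory library 1 or 2, and that of inhibitors called higher was 9, 7 and 10, then 37 and 13. In early anagen over refractory telogen 16 activators were higher and 12 lower.

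The same change of stage was tested for a difference between ventral skin and the other domains, which share no library with it. Over 19132 genes tested in 14 telogen libraries, the change in ventral skin was above that in dorsal skin for 3787 genes (19.8%) and below it for 1145 (5.98%), and above that in chin skin for 4336 (22.7%) and below it for 1066 (5.57%). The median difference of all genes was 0.31 against dorsal and 0.28 against chin skin, since the shift of the median was 0.27 in ventral, 0 in dorsal and 0.01 in chin skin in this fit. After scaling by the median of ratios the counts were 1806 above and 2219 below against dorsal skin, and 2586 and 2324 against chin skin. The counts of lists against the other domains below are as deposited only. How far the shift of the median enters them was not tested.

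Cell cycle genes were higher in competent telogen in all 3 domains, with list medians of 2.20 in ventral, 1.18 in dorsal and 1.98 in chin skin. The ventral change exceeded the dorsal one for 23 of 29 genes and the chin one for 5, and was below neither for any. For Mki67 the dorsal libraries had 1.88 and 2.14 FPKM in refractory and 6.27 and 6.12 FPKM in competent telogen, and the chin libraries had 1.85, 2.05 and 1.81 and 13.5 and 13.3 FPKM. Melanocyte genes had medians of 2.15, 1.82 and 2.51 in the same order of domains, and the ventral change was above the dorsal one for 1 of 11 and below it for 1. Hedgehog genes had 1.36, 0.42 and 1.09, with 6 of 8 above the dorsal and 2 above the chin change. WNT antagonists had 0.76, -0.05 and 0.12, with 9 of 14 above and 3 below the dorsal change and 8 above the chin change. For Wif1, dorsal skin went from 6.13 and 5.28 to 11.1 and 10.1 FPKM and chin skin from 4.61, 5.46 and 5.47 to 47.2 and 46.6 FPKM, and the ventral change exceeded the dorsal one by 2.76 ± 0.15 (adjusted p = 1.36e-06). Of 8 BMP ligands, none lay above or below the dorsal change. Against the chin change 1 lay above and 2 below, beside 22.7% and 5.57% of all genes, but the list is short.

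Hair shaft components set the ventral change apart from the dorsal one, but dorsal competent telogen held them near the level of ventral mid anagen. The mean log2(FPKM + 1) of the keratin-associated proteins was 9.63 to 9.67 in dorsal competent telogen and 3.11 to 3.42 in dorsal early anagen. In ventral mid anagen it was 9.54 to 9.68, and in ventral late anagen 8.90 to 8.96. Shaft keratins stood at 8.89 to 8.92 in dorsal competent telogen and at 5.36 to 5.52 in dorsal early anagen. They stood at 8.99 in ventral mid anagen and at 9.03 to 9.08 in ventral late anagen. Why the dorsal labels stand in this order was not tested. The keratin-associated proteins had a median of -3.005 in ventral, 1.09 in dorsal and -2.08 in chin skin, and 54 of 55 fell below the dorsal change and 33 below the chin change, with 3 above. For Krtap6-3, dorsal skin had 4129 and 4125 FPKM in refractory and 938 and 909 FPKM in competent telogen, and chin skin 1632, 1120.4 and 1823 and 3.56 and 1.82 FPKM. The competent libraries of the ventrum and the chin were thus both near 0 for it and those of the dorsum were not. In dorsal early anagen it was listed at 0 and 3.07 FPKM. Sebaceous genes went the other way, with medians of 1.22, -0.22 and -0.82, and 7 of 11 exceeded the dorsal change and 7 the chin change. For Scd3 the ventral change exceeded the dorsal one by 4.87 ± 0.42 and the chin one by 6.24 ± 0.40 (adjusted p = 2.84e-05 and 1.17e-05). Tissue under the skin differed as well: skeletal muscle genes had medians of -1.75, 0.46 and -4.31 and adipocyte genes -0.55, 1.21 and -1.75, so the ventral change lay below the dorsal one for 20 of 26 and 18 of 26 genes and above the chin one for 25 and 17. Simple epithelium and mammary genes had -2.52, 0.49 and -0.13.

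**Figure D4:**
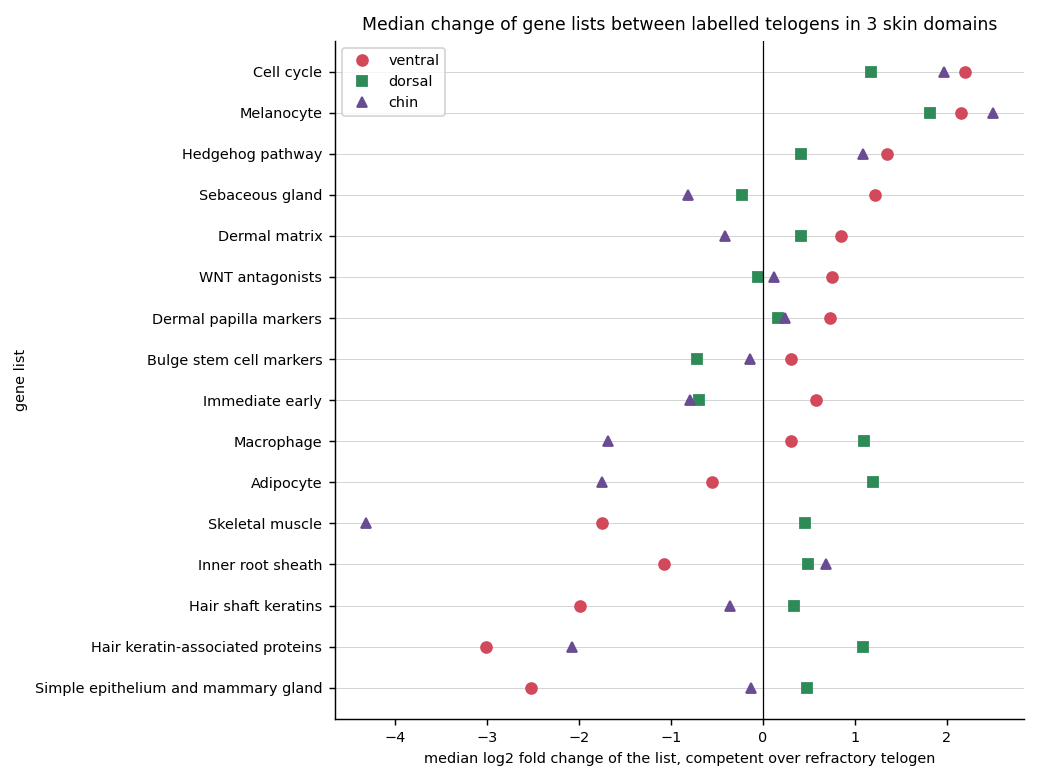
Median log2 difference of competent minus refractory telogen for 16 gene lists in ventral, dorsal and chin skin (1 point per list and domain). The cell cycle list is above 0 in all 3 domains, and the keratin-associated proteins are at -3.005 in ventral, 1.09 in dorsal and -2.08 in chin skin.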

How the data were processed

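RNA of whole ventral skin of C57BL/6 mice had been amplified as full-length cDNA and sequenced from both ends. The authors quantified it with RSEM 1.2.25 against mm10 and GENCODE vM8, per the paper and the submitters' processing notes, and ran edgeR on the result. What the authors deposited is FPKM with 2 decimals for 46983 genes. A batch correction is stated but no batches are named, so batch and stage cannot be told apart here. The genes and lists described, and the comparison itself, were chosen with earlier results of these data known.

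Here, log2(FPKM + 1) was tested with limma 3.58.1 (R 4.3.3) with a trend of the variance, keeping each gene that reached 0.5 FPKM in 2 or more of the libraries compared. Adjusted p-values are Benjamini-Hochberg values over every gene kept, and a call is an adjusted p under 0.05. There were no counts, so no count model was used. Interaction terms in 1 fit of 14 libraries tested the ventral change against the dorsal and chin changes. Depth was estimated from the FPKM steps of genes with 1 transcript, of which 74.8% to 80.7% of low values lay within 0.15 of a whole fragment. Such depths bear on counting error only.

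Named genes were the 12 largest rises and 12 largest falls among called, protein-coding genes with a mean of at least 5 FPKM in the higher group and no overlap between groups, tested members of the signalling, bulge and papilla lists, up to 4 members of each other list by absolute change, and the 5 largest differences each way from dorsal and chin skin. Further members of those other lists were named after their values were seen. Some genes are not reported here and were left out of the signalling lists. Gene positions came from GENCODE vM21 on GRCm38 and promoters from RefSeq. The limma step was tested on simulated data. Tables and figures were made with Python 3.11.15, pandas 2.3.3, numpy 2.4.6 and matplotlib 3.10.9. Alternatives changed the pseudocount to 0.1, the filter to none or to 5 FPKM, or the scaling to TPM, quantiles or the median of ratios. Others dropped the variance trend, added the replicate number as a block, fitted 15 or 43 libraries together, or left out each library in turn. Early anagen in place of competent telogen and the fit of ventral libraries without catagen library 1 were chosen after seeing the data.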

Additional observations from a re-analysis of the deposited data

Results flagged for a closer look

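The change from refractory to competent telogen differed between ventral and dorsal skin for 4932 genes and between ventral and chin skin for 5402 genes, by limma's test of the difference of the changes. The values below are that difference on the log2(FPKM + 1) scale. Against dorsal skin the ventral change was higher by 5.90 for Serpina3j, 5.54 for Serpina3b, 4.87 for Scd3, 4.85 for Serpinb6e and 4.81 for Hamp2. Serpina3j had 19.6 and 19.8 FPKM in dorsal refractory and 4.04 and 4.34 FPKM in dorsal competent telogen, so it was lower in both dorsal competent libraries. The keratin-associated proteins lay at the other end, with -8.35 for Krtap19-2, -8.28 for Krtap6-3, -8.10 for Krtap19-9b, -8.03 for Krtap19-1 and -7.98 for Krtap19-5. Krtap19-1 had 76.9 and 82.5 FPKM in ventral refractory and 0.68, 2.79 and 1.37 FPKM in ventral competent telogen, and 50.5 and 55.7 and 440.3 and 419.9 FPKM in the same order in dorsal skin.

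Against chin skin the ventral change was higher by 6.24 for Scd3, 6.19 for Serpinb6e, 5.74 for Sln, 5.35 for Hamp2 and 4.64 for Ces4a. Sln, a regulator of the calcium pump of muscle, had 0.67 and 0.34 and then 4.39, 6.44 and 4.23 FPKM in ventral skin and 17.2, 11.1 and 20.99 and then 0.34 and 0.18 FPKM in chin skin, where the skeletal muscle list had a median of -4.31. It was lower by -4.54 for Krtap19-5, -4.31 for Krtap16-3, -4.04 for Krtap19-1, -4.01 for Upk3a and -3.44 for Cited1. Upk3a was listed at 0 in all chin and dorsal telogen libraries, so its value is the ventral change alone. Cited1 had 22.6 and 33.02 FPKM in ventral refractory and 1.41, 1.02 and 0.89 FPKM in ventral competent telogen, against 2.96, 0.97 and 1.02 and 1.46 and 0.65 FPKM in the chin. Causes of these differences were not tested.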

How the results depend on the processing

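Of 4989 values of named genes under the alternatives other than early anagen in place of competent telogen, none was called in the opposite direction. Among values called neither time, 127 changed sign. With a library left out 179 lost their call, 54 gained one and 1347 did neither, and under the other alternatives 159 lost and 310 gained one and 2940 did neither. The 24 largest rises and falls kept their call in 384 of 384. Counts moved more. For competent over refractory telogen (3842 called, 3109 higher, 733 lower) no filter on low values gave 2305, with 1747 higher, the replicate block gave 1633 (1208 and 425), a fit of 43 libraries 9144 (7436 and 1708) and a fit of 15 ventral libraries 7975 (6514 and 1461), or 7806 (6370 and 1436) without ventral catagen library 1, whose labels also name an ear location. The median of ratios gave 1358 higher and 1557 lower, quantile normalization 1544 and 1545. Early anagen in place of competent telogen, which is another comparison, gave 2089, with 1176 higher. Of 146 named genes called for competent over refractory telogen, 47 had the other sign with early anagen, 9 of them with a call. Leaving out 1 library gave 1347 to 6222 called, 964 to 5385 higher and 383 to 837 lower. The highest count, 6222, came without refractory library 1, where refractory library 2 alone was assumed to vary like the other group. Without competent library 1, 2 or 3, 1355, 1347 and 1870 were called.

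For the ventral minus dorsal change (4932, 3787 and 1145), TPM gave 5908 higher and 751 lower, the median of ratios 1806 and 2219, quantile normalization 2029 and 1791, and the replicate block 2257 (1650 and 607). Libraries left out gave 4135 to 7706, with 3145 to 6153 higher and 989 to 1553 lower, and 7706 came without refractory library 1. For the ventral minus chin change (5402, 4336 and 1066), TPM gave 640 lower, the median of ratios 2586 higher and 2324 lower, quantile normalization 2422 and 2440, and the block 2723 (2308 and 415). Libraries left out gave 4711 to 7606, with 3745 to 6201 higher and 933 to 1675 lower, and 1675 came without refractory library 2. Deviations of same-numbered libraries correlated by 0.07 and -0.18 over 2 pairs, so the numbers were not taken as pairs.

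Low genes near the step of 1 fragment are measured with counting error that the 2 refractory libraries cannot resolve. The batch correction of the deposited values could not be checked. Stage, age and hair cycle number cannot be told apart, nor can cell number and RNA per cell.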

Other observations

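Some members of further groups were called. Of 11 Notch genes, 4 were called higher as deposited and 2 with the median of ratios: Hes1, a target of Notch, had 49.9 and 57.3 against 134, 189 and 134 FPKM (1.48 ± 0.21), and Heyl, another target, had 3.74 and 1.55 against 11.1, 9.47 and 8.4 FPKM (1.61 ± 0.30). The ligands Jag1 and Jag2 (1.02 ± 0.20 and 0.84 ± 0.18) were called as deposited only. With competent library 2 left out 1 of the list was called. Of 10 imprinted growth genes, 4 were called higher and 1 lower as deposited and 3 and 2 with the median of ratios, while without competent library 1 or 3 there was 1 higher and none lower: Mest had 3.85 and 2.28 against 12.4, 7.33 and 12.6 FPKM (1.53 ± 0.30), Meg3, a noncoding RNA, had 19.4 and 20.9 against 68.3, 50.02 and 50.8 FPKM (1.42 ± 0.19), and H19, a noncoding RNA that restrains growth, had 17.4 and 24.9 against 7.07, 9.93 and 7.78 FPKM (-1.25 ± 0.23). In the IGF axis Igfbp2 rose from 18.03 and 23.9 to 64.2, 63.6 and 47.3 FPKM (1.43 ± 0.21) and Igfbp5 fell from 28.9 and 25.8 to 12.8, 17.04 and 14.4 FPKM (-0.85 ± 0.18), while Igf1 had 29.1 and 30.6 against 22.3, 18.9 and 20.4 FPKM without a call as deposited. The 9 genes of that axis gave 2 higher and 1 lower as deposited and 1 and 3 with the median of ratios. Of all genes, 18.3% were called higher and 4.32% lower as deposited, and 8.00% and 9.17% with the median of ratios. The 2 of 9 higher in the IGF axis thus lay near the share of all genes. The 4 of 11 Notch and 4 of 10 imprinted genes lay above it, but these lists are short.

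The following genes were chosen after their values were seen. Car6, a secreted carbonic anhydrase, had 208 and 219 FPKM in the refractory and 8, 6.7 and 7.57 FPKM in the competent libraries (-4.67 ± 0.16), and in early anagen it was higher than in refractory telogen by 0.54. Atp12a, a proton and potassium pump, had 18.5 and 17.9 against 0.47, 0.61 and 0.48 FPKM (-3.66 ± 0.17) and likewise lay higher in early anagen, by 1.10. Serpinb6d, a paralog of Serpinb6e, moved opposite to it, with 29.7 and 36.4 against 1.02, 1.76 and 0.79 FPKM (-3.98 ± 0.24), and was near 0 in early anagen too (-5.03). Reads shared between these paralogs were not examined. Slc5a2, a glucose transporter, fell from 19.1 and 19.5 to 0.19, 0 and 0.16 FPKM (-4.19 ± 0.18), and Aqp5, a water channel of glands, from 11.3 and 12.9 to 0.48, 0.27 and 0.32 FPKM (-3.28 ± 0.18).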
